A study of Homo sapiens with 13 samples.

Results

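Arrays made of IRF motifs alone, with 1 to 5 copies in each of 3 flanking contexts, were followed through 3 tables of an enhancer reporter assay in MEC1 cells. An array was taken as a member where its motif string held IRF and no other name. The rule used no measured value. It found 15 arrays among 442 constructs of the episomal library with 10 bp between neighbouring motifs, 15 among 542 constructs of the episomal 5 bp library, and 15 among 530 constructs of the integrated 5 bp library. The arrays were carried by 7156 barcodes at 10 bp and 5186 barcodes at 5 bp with at least 5 plasmid reads, and by 292 of the 16189 integrated barcodes.

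MEC1 cells, a B cell line derived from chronic lymphocytic leukaemia, carried a wild-type genotype label in all samples, although those of the integrated assay also carried an engineered landing pad. In STARR-seq the tested DNA is transcribed as part of the reporter, so its abundance in mRNA over DNA reads out its enhancer activity, and a 12 bp random barcode marks each cloned molecule. In the episomal assay the groups were mRNA taken 24 h after electroporation (2 replicate transfections for each spacer) and the plasmid DNA pool (1 library for each spacer). In the integrated assay the groups were mRNA (3 replicates) and genomic DNA (3 replicates) from cells that carried CRE recombinase and a loxP-CMV-GFP-lox2272 landing pad, into which the 5 bp pool had been exchanged. Those cells were sorted for loss of GFP after 10 to 12 days, grown for another 6 to 7 days and extracted in triplicate. The labels do not say that the triplicates were separate cultures, so their spread may be technical, and the labels do not place the landing pad in the genome. The construct named rd in the same context and table, which carries none of the 8 motif names, served as the comparator throughout.

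Interferon regulatory factors (IRFs) are a family of transcription factors that bind DNA elements built around GAAA cores. They relay interferon and pattern recognition receptor signals, and IRF4 and IRF8 direct B cell and plasma cell development. IRF4 binds DNA weakly by itself and is known to bind composite elements beside PU1 or AP-1 partners in lymphocytes. Which family member the array motif was taken from, and the bases of the motif, spacers and flanks, could not be taken from the labels or tables used here.

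The sequences that the tables do hold are the barcodes. The 6 barcodes that tagged integrated copies of the longest IRF array are shown because each of them gave mRNA in all 3 replicates, whereas most integrated barcodes gave none. They are written 5′ to 3′ as listed, in lower case throughout because no base in them is singled out.
5 IRF motifs, context 1, barcode 1: agtcccgcaggc
5 IRF motifs, context 1, barcode 2: tttttagtaaaa
5 IRF motifs, context 2, barcode 1: attgaatacttt
5 IRF motifs, context 2, barcode 2: caaaagttctgg
5 IRF motifs, context 2, barcode 3: tattcggtgtca
5 IRF motifs, context 3, single barcode: cggagtccgtct

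The total reads per episomal library lay between 3850658 and 4563359, and 16.6% to 18.5% of them carried no construct name and were set aside. Each listed episomal barcode had at least 1 read in all 3 libraries of its table, so molecules without mRNA are missing and low activities are overstated. The integrated table gives depth-scaled reads (RPM) for barcodes with at least 2 RPM in every genomic DNA sample, without read totals. Among the IRF arrays those of 3 copies held the most barcodes and those of 4 and 5 copies the fewest. With 1 to 5 copies the counts were 530 to 739, 449 to 658, 777 to 935, 185 to 276 and 68 to 224 barcodes per array at 10 bp. At 5 bp they were 423 to 605, 367 to 424, 598 to 765, 105 to 162 and 35 to 57, and after integration 19 to 32, 17 to 20, 40 to 46, 4 to 11 and 1 to 3. Reads of 1 molecule are not independent. The exact intervals below are taken over barcodes and cover their sampling only, and the SEs come from the fits to the libraries.

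With 10 bp spacers, IRF arrays stood well above the construct without a motif. Activity, measured as log2 of the construct's mRNA share divided by its plasmid share, exceeded that of rd by 1.59 ± 0.11 on average (SD, n = 2 mRNA replicates), a 3.02-fold difference. By edgeR's quasi-likelihood test 14 of 15 arrays were higher than rd and 0 were lower (Benjamini-Hochberg adjusted p under 0.05 over 439 constructs). Of all constructs tested, 44.4% were higher and 43.7% lower. The median difference was 1.78 over the IRF arrays and -0.05 over all constructs.

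The array of 3 copies in context 3 had the highest difference, with 38024 and 39228 mRNA reads over 12559 plasmid reads, against 6419 and 5871 mRNA reads over 12397 plasmid reads for rd. Its activity stood 2.55 and 2.72 log2 units above rd in the 2 replicates (2.63, SE 0.12 in the fit). The array of 2 copies in context 1 followed, with 18812 and 18794 mRNA reads over 6100 plasmid reads, against 6177 and 5612 over 10404 for rd, and stood 2.38 and 2.51 log2 units above rd (2.44, SE 0.12). In both contexts the array and rd did not overlap. The difference was spread over many molecules. Of the barcodes of 3 copies in context 3, 97.4% exceeded the median rd barcode, and 0.93% of the mRNA reads came from the top barcode.

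The single motif behaved differently in each context at 10 bp. In context 3 it stood 1.99 and 2.09 log2 units above rd, a 4.10-fold difference, and 93.5% of its barcodes exceeded the median rd barcode. In context 1 it stood 1.05 and 1.06 log2 units above rd, a 2.08-fold difference. In context 2 it lay at -0.04 and -0.01 log2 units relative to rd (edgeR adjusted p = 0.82), and 48.9% of its barcodes exceeded the median rd barcode. This was the array that did not pass. Setting it against the 3 rd constructs summed raised it to 0.25 (edgeR adjusted p = 0.0223).

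With 10 bp spacers, adding a second IRF motif gave the largest gain where the first had given least. The single copy enters both values with opposite signs, so part of this relation is built in. The array of 2 copies exceeded that of 1 copy by 1.91 (SE 0.09, edgeR adjusted p = 5.19e-07) in context 2 and by 1.39 (SE 0.09, edgeR adjusted p = 2.6e-06) in context 1. In context 3 the same step measured 0.04 (SE 0.09, edgeR adjusted p = 0.726). Averaged over contexts, arrays of 1, 2, 3, 4 and 5 copies stood 1.02, 2.14, 1.79, 1.61 and 1.41 log2 units above rd, so the mean was highest with 2 copies. The SD of these means over the 2 replicates was at most 0.16. With 5 bp spacers the second motif added 0.45 (SE 0.09, edgeR adjusted p = 0.00221) in context 1. In context 2 the step was -0.11 (SE 0.10, edgeR adjusted p = 0.364), and in context 3 it was 0.24 (SE 0.09, edgeR adjusted p = 0.0529). The first motif at 5 bp had given least in context 3, so the pattern at 10 bp did not recur.

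Going on to 3 motifs changed activity in opposite directions by context. At 10 bp the step to 3 copies was -0.86 in context 1 (SE 0.11), -0.74 in context 2 (SE 0.10) and 0.56 in context 3 (SE 0.09). The 5 bp library, a separate pool with its own transfections, gave -0.62 (SE 0.11), -0.57 (SE 0.10) and 0.55 (SE 0.10) for these steps. All 6 passed, with edgeR adjusted p between 0.0002 and 0.0017. In context 3 the step from 3 to 4 copies was then -0.77 (SE 0.11) at 10 bp and -0.36 (SE 0.12) at 5 bp, both past the threshold, and no step from 4 to 5 copies passed in either library. In all, 6 of 12 IRF steps at 10 bp passed (3 higher, 3 lower) and 5 of 12 at 5 bp (2 higher, 3 lower). Over the steps of all 8 motifs 71.4% passed at 10 bp and 50.5% at 5 bp, so the number of IRF steps that passed was not above the background.

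With 5 bp spacers, IRF arrays lay closer to rd. They exceeded it by 0.57 ± 0.12 log2 units on average (SD, n = 2), a 1.48-fold difference, and the arrays ranged from 0.14 to 1.15. By edgeR 11 of 15 arrays were higher than rd and 0 were lower. This count is near the background, since 63.1% of all constructs were higher and 24.1% lower, and the median difference over all constructs was 0.62 beside 0.58 over the IRF arrays. Set against plasmid DNA alone, with TMM scaling and no comparator construct, 3 of the 15 were higher and 8 lower. The shares of all constructs above are for the test against rd and are no background for these 2 counts.

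The most active 5 bp array was 2 copies in context 1, with 3875 and 3450 mRNA reads over 4423 plasmid reads, against 2655 and 2389 over 6778 for rd. It stood 1.16 and 1.15 log2 units above rd, and 89.3% of its barcodes exceeded the median rd barcode. The array of 3 copies in context 3 followed at 0.90 and 0.99, and the single motif in context 2 at 0.82 and 0.98. The arrays that did not pass were the single motif in context 3 (0.14, edgeR adjusted p = 0.269), 3 copies in context 2 (0.22, 0.0808), 4 copies in context 2 (0.27, 0.0601) and 5 copies in context 3 (0.21, 0.184). Arrays of 1, 2, 3, 4 and 5 copies averaged 0.58, 0.78, 0.56, 0.40 and 0.52 log2 units above rd, with an SD over replicates of up to 0.19.

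The arrays of 5 copies at 5 bp rested on 35 to 57 barcodes, and their top barcode held 7.90% to 11.03% of their mRNA reads. Under a minimum of 20 plasmid reads on each barcode, or without either mRNA replicate, the counts of IRF arrays past the threshold in this library stayed between 9 and 12. Without 1 of its mRNA replicates this library has a single mRNA sample, which is then assumed to vary as the 2 mRNA replicates at 10 bp do.

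IRF arrays were more active with 10 bp than with 5 bp spacers. Relative to rd in each library, 12 of 15 were higher at 10 bp and 1 was lower by the test of the difference, whereas 13.2% of all constructs were higher and 64.5% lower. The median difference was 1.09 over the IRF arrays and -0.76 over all constructs. Arrays of 2 to 5 copies differed by 1.17 on average, a 2.25-fold difference, and ranged from 0.21 to 1.69. The largest were all in context 3, at 1.69 for 3 copies (SE 0.17), 5 copies (SE 0.20) and 2 copies (SE 0.18). The array of 5 copies in context 2 did not pass, at 0.21 (SE 0.20, edgeR adjusted p = 0.335). Scaled by TMM without rd, the mean over all 15 arrays moved to 1.72, beside 1.02 relative to rd, and 14 were higher. The shares of all constructs above are relative to rd and are no background for this count.

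Arrays of 1 motif, which hold no spacer between motifs, differed between the libraries as well. The single motif in context 3 was higher at 10 bp by 1.89 (SE 0.17), the largest difference of the 15 arrays. The single motif in context 1 differed by 0.36 (SE 0.18, edgeR adjusted p = 0.0569). In context 2 it was lower at 10 bp, at -0.93 (SE 0.18, edgeR adjusted p = 3.49e-07). Each spacer was cloned and transfected as its own pool, so spacing and pool cannot be told apart.

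The order of the arrays was not shared between spacers. Over the 15 arrays the differences from rd at 10 bp and at 5 bp had a Pearson r of 0.07 and a Spearman rho of 0.04, as a description over constructs that share the same rd. Without rd, the activities gave -0.11 and -0.14. The single motif showed this plainly. Among the contexts, context 3 gave it the highest activity at 10 bp (1.16, against 0.38 in context 1 and -0.34 in context 2) and the lowest at 5 bp (-1.41, against -0.55 in context 1 and -0.21 in context 2).

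The flanking context was tested by setting the same array in one context against another. At 10 bp 10 of 15 IRF comparisons passed (5 higher, 5 lower), beside 73.2% of those of all designs, and at 5 bp 9 of 15 passed (2 higher, 7 lower), beside 55.1%. Both shares were near the background. The largest were for the single motif, in context 3 minus context 2, at 1.503 (SE 0.08) with 10 bp and -1.19 (SE 0.08) with 5 bp spacers. For arrays of 4 copies no context comparison passed in either library, with differences between -0.23 and 0.12.

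Set against other motifs with the same copies and context, IRF was higher in 97 of 100 matched comparisons at 10 bp, lower in 0, and 3 did not pass. At 5 bp IRF was higher in 59 and lower in 20 of 100. Over the 28 pairs of motifs 88.3% of comparisons passed in either direction at 10 bp and 80.8% at 5 bp. NFKB, the mediator of inflammatory and B cell receptor signals, was the nearest motif to IRF at 10 bp and the one above it at 5 bp.

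Against NFKB, IRF was higher in 12 of 15 comparisons at 10 bp and lower in 13 of 15 at 5 bp. At 10 bp the 3 that did not pass were the single motif in contexts 1 (-0.08, edgeR adjusted p = 0.458) and 3 (0.00, 0.99) and 5 copies in context 2 (0.26, 0.0846). The largest difference was 2.84 (SE 0.10), for 3 copies in context 3. At 5 bp the difference ran from 0.03 (SE 0.10) for the single motif in context 1 to -3.78 (SE 0.16) for 5 copies in context 3. FOXO, a family of forkhead factors restrained by growth factor signalling, was nearest below IRF at 5 bp, where IRF was higher in 4, lower in 2 and not past the threshold in 9 of 15 comparisons. At 10 bp IRF was higher than FOXO in 15 of 15.

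After integration, IRF arrays were higher than rd in 11 of 13 tested arrays and lower in 0 (limma on log2 of summed RPM + 0.5, adjusted p under 0.05 over 510 constructs). Of all constructs 31.8% were higher and 32% lower, and the median was -0.23 beside 2.57 over the IRF arrays. The mean difference was 2.49 ± 0.22 log2 units (SD, n = 3), a 5.62-fold difference on this scale. The other 2 arrays, 5 copies in contexts 1 and 3, had 2 and 1 barcodes and were not tested. The size of the difference depends on rd, whose log2 ratio of mRNA to genomic DNA was -1.002, 0.75 and -3.77 in contexts 1, 2 and 3. A single barcode held 67.3%, 84.0% and 46.0% of the rd mRNA in contexts 1, 2 and 3, where 6, 12 and 6 barcodes had any mRNA. None of the rd barcodes of context 3 had mRNA in all 3 replicates. Set against genomic DNA alone, without rd, IRF arrays averaged 1.31, with 9 higher and 1 lower. For these counts the shares of all constructs against rd are no background. With the median over barcodes in place of the sum the mean difference from rd was 4.92. At most 18.4% of rd barcodes of a context had mRNA in a replicate, so the median rd barcode had none. Its value was then set by its genomic DNA and the added 0.5 RPM, so 4.92 is not a measured effect size. Among arrays with at least 20 barcodes 5 of 6 were higher than rd, and among barcodes of at least 10 RPM in genomic DNA 7 of 11 arrays were.

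Averaged over contexts, integrated activity was higher with each added motif. Without rd, the log2 ratio of mRNA to genomic DNA averaged over contexts was -0.43 with 1 copy, 0.77 with 2, 1.46 with 3, 2.47 with 4 and 3.35 with 5. In context 1 it was -0.19, 1.03, 1.57, 2.10 and 3.35 with 1 to 5 copies, and in context 3 it was -1.08, -0.46, 2.15, 2.43 and 2.47. In context 2 it was -0.01, 1.75, 0.68, 2.87 and 4.22, so the array of 3 copies lay below that of 2. The last value in each context rests on 3 or fewer barcodes.

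Of the 10 integrated steps that could be tested, 5 were higher and 1 lower by limma, beside 43.2% passing over the steps of all motifs. The highest was 2.61 (SE 0.31, limma adjusted p = 7.55e-05) from 2 to 3 copies in context 3. The one that fell was from 2 to 3 copies in context 2, at -1.07 (SE 0.26, limma adjusted p = 0.00911). The second motif raised activity by 1.76 (SE 0.23) in context 2 and by 1.22 (SE 0.26) in context 1, and in context 3 the step was 0.62 (SE 0.46, limma adjusted p = 0.285). These tests measure the spread between extractions of the same integrated clones and not that between barcodes. With at least 20 barcodes per construct 1 of 2 steps passed, and with barcodes of at least 10 RPM in genomic DNA 2 of 8 passed.

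The array of 3 copies in context 3 had 46 barcodes, the most of the integrated IRF arrays. It gave 5655, 6785 and 5448 RPM of mRNA over 1334, 1230 and 1471 RPM of genomic DNA, against 134, 112 and 97 RPM of mRNA over 1622, 1580 and 1455 RPM for rd. Every replicate of the array lay above every replicate of rd. It stood 5.92 above rd (SE 0.23, limma adjusted p = 2.22e-08). The array of 2 copies in context 2 gave 2127, 1734 and 2020 RPM of mRNA over 562, 614 and 567 RPM of genomic DNA, against 1427, 2430 and 1148 RPM over 985, 976 and 868 RPM for rd. Here the mRNA of the array and of rd overlapped, and the difference was 1.00 (SE 0.34, limma adjusted p = 0.0274). Without rd the mean log2 ratio of mRNA to genomic DNA was 2.15 for 3 copies in context 3 and 1.75 for 2 copies in context 2. The 2 arrays thus lay much closer to each other than their differences from rd, which was -3.77 in context 3 and 0.75 in context 2.

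The arrays that did not pass after integration were the single motif in context 2, at -0.76 (SE 0.36, limma adjusted p = 0.0859), and 3 copies in context 2, at -0.07 (SE 0.38, limma adjusted p = 0.879). Both were set against rd of context 2, whose top barcode held the largest share of mRNA among the 3 rd constructs. Whether that barcode is why they did not pass was not tested. An alternative chosen after seeing the data left out the barcode of most mRNA in every construct. There 3 copies in context 2 stood 2.40 above rd (limma adjusted p = 0.0133), and the single motif in context 2 again did not pass. In this setting 11 arrays passed as higher, but they were not the same 11. The array of 5 copies in context 2 fell below the minimum of 3 barcodes and was not tested.

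A larger share of integrated IRF barcodes than of rd barcodes gave mRNA. Of 292 IRF barcodes 58.9% ± 6.51 had mRNA (SD, n = 3), against 9.49% ± 3.08 of 123 rd barcodes. In any of the 3 replicates it was 230 IRF barcodes, or 78.8% (exact 95% interval 73.6% to 83.3%), against 24 rd barcodes, or 19.5% (12.9% to 27.6%). In all 3 replicates it was 116 IRF barcodes, or 39.7%, against 4 rd barcodes, or 3.25%. Among all 16189 barcodes 36.6% had mRNA in any replicate and 6.78% in all 3.

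By motif number the share with mRNA in any replicate was 59.5% of 79 barcodes with 1 copy, 83.9% of 56 with 2, 85.7% of 126 with 3, 88.0% of 25 with 4 and 100% of 6 with 5. Per replicate it averaged 37.1% ± 4.45 with 1 copy, 63.7% ± 4.49 with 2, 65.1% ± 8.73 with 3, 76.0% ± 8 with 4 and 100% ± 0 with 5 (SD, n = 3 extractions). These shares were not tested between copy numbers, since barcodes of 1 cell pool are not replicates of a condition. Among the barcodes with mRNA, the median ratio of mRNA to genomic DNA was 1.04 with 1 copy, 2.20 with 2, 2.58 with 3, 5.19 with 4 and 10.3 with 5, against 0.67 for rd. The genomic DNA under these ratios also differed, with a median of 34.6, 31.3, 20.9, 14.1 and 20.8 RPM for 1 to 5 copies, against 28.6 RPM for rd. Its part in the ratios was not tested.

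Barcodes of the arrays of 5 copies shown above gave ratios over a wide range. In the 3 replicates the ratio was 21.6, 7.62 and 9.21 for agtcccgcaggc and 92.6, 4.37 and 1.999 for tttttagtaaaa in context 1. In context 2 it was 196.4, 17.9 and 19.6 for attgaatacttt, 1.85, 7.14 and 4.65 for caaaagttctgg, and 17.8, 53.7 and 46.2 for tattcggtgtca. In context 3 it was 7.92, 1.83 and 12.8 for cggagtccgtct. The highest ratio, 196.4, had 2.97 RPM of genomic DNA under it, and over the 6 barcodes genomic DNA ran from 2.97 to 48.4 RPM.

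Genomic DNA level moved with detection. IRF barcodes with mRNA in any replicate had a median of 24.0 RPM of genomic DNA, against 15.2 RPM for IRF barcodes without it. Among barcodes with at least 10 RPM in every genomic DNA sample, 64.7% ± 8.23 of 152 IRF barcodes had mRNA, against 15.3% ± 3.79 of 61 rd barcodes (SD, n = 3).

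Against other motifs after integration, IRF was higher in 62 of 84 matched comparisons and lower in 3, beside 63.1% passing in either direction over all pairs of motifs. The nearest motif was again NFKB, against which IRF was higher in 6 of 13 and lower in 0, and 7 did not pass. The share of barcodes with mRNA in any replicate was 71.8% of 362 for NFKB arrays. With 1 copy it was 59.5% for IRF and 39.4% for NFKB, and with 3 copies 85.7% for IRF and 86.8% for NFKB. The share with mRNA in all 3 replicates was 20.3% for IRF and 6.06% for NFKB with 1 copy, 44.4% for IRF and 27.8% for NFKB with 3 copies, and 39.7% for IRF and 20.2% for NFKB over all copies. Whether the motifs differ in how the share depends on copy number was not tested. For context, 5 of 12 integrated IRF comparisons passed (2 higher, 3 lower), beside 34.2% over all designs. The IRF count fell to 1 of 12 without replicate 2, 2 without replicate 3 and 3 without replicate 1. The 34.2% is from all 3 replicates, so whether the fall is particular to IRF cannot be told from it.

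Likeness between the integrated and episomal values depended on rd. Over 13 arrays the integrated and episomal 5 bp differences from rd had a Pearson r of 0.01 and a Spearman rho of -0.07, and with the episomal 10 bp arrays, whose spacer differs, the values were 0.62 and 0.46. For activities without rd, an alternative chosen after seeing the data, they were 0.24 and 0.21 with the 5 bp arrays and 0.10 and -0.01 with the 10 bp arrays, so the order of the likenesses turned. All are descriptions over constructs that share libraries and, where it was subtracted, rd. The array of 4 copies in context 3, with 10 integrated barcodes, stood at 6.20 (SE 0.37) above rd after integration. In the episomal 5 bp library it stood at 0.58 (SE 0.14) above rd. Without rd its activity was 2.43 after integration and -0.97 in the episomal 5 bp library. Integrated values are over genomic DNA and episomal values over plasmid DNA, so the scales differ. At the level of single molecules, 190 of the 292 integrated IRF barcodes were listed with the same construct in the episomal 5 bp table. Of those with at least 5 episomal plasmid reads, the 128 with mRNA after integration had a median episomal activity of -0.84 (quartiles -1.68 and -0.30), and the 26 without mRNA -0.94 (quartiles -2.05 and -0.22).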

How the data were processed

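Barcode reads of 13 samples were analysed. For the episomal libraries the deposited values are unnormalized read counts of each barcode, per the file headers, and for integrated mRNA and genomic DNA they are RPM computed by the authors, beside plasmid DNA counts that were not tested here. No label or header names the counting tools, and 9 columns of per-sample values that matched no sample were not used. Named barcodes with at least 5 plasmid reads were added up by construct, keeping constructs of 5 or more barcodes (integrated: 3).

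Each test took a pair of constructs (array and rd, neighbouring copy numbers, contexts or motifs) in all libraries and tested the difference of their mRNA to DNA ratios. Counts were fitted with edgeR 4.0.16 (quasi-likelihood test, TMM, both spacers jointly, 1 plasmid library each) and log2(RPM + 0.5) with limma 3.58.1, in R 4.3.3. P-values were adjusted by Benjamini-Hochberg over each fit, and adjusted p under 0.05 passed. Rows share constructs, so calls are not independent, and the 2 mRNA replicates per spacer limit the precision.

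On simulated counts the fit against rd over 439 constructs called 97.2% of log2 changes of 0.5 at 5 bp and 94.4% at 10 bp, and 0% and 2.93% of unchanged constructs. On values simulated per construct with normal log2 noise, the integrated fit over 510 constructs called 84.0% of changes of 2 and 2.26% of unchanged ones. Barcodes without mRNA and dominant barcodes were not simulated, so these rates need not hold for the integrated data. Mean values, SD and shares were computed with Python 3.11.15. The 2 mRNA replicates differed by more than sampling noise (chi-square per degree of freedom 6.41 at 5 bp and 6.76 at 10 bp). All IRF arrays were named, and of the other motifs those nearest to IRF in mean. The members, lists and tests were chosen with earlier results of these data known.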

Additional observations from a re-analysis of the deposited data

Results flagged for a closer look

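The difference from rd was tested between the 10 bp and the 5 bp library, and 13 IRF arrays differed. Of these 12 were higher and 1 was lower at 10 bp, beside 13.2% higher and 64.5% lower over all constructs. Most constructs differed in one direction or the other, so the number of IRF arrays that differed is near the background. In context 1 the differences (10 bp minus 5 bp) were 1.29 for 2 copies, 1.05 for 3, 1.41 for 4 and 0.79 for 5. In context 2 they were -0.93 for 1 copy, 1.09 for 2, 0.92 for 3 and 0.92 for 4. In context 3 they were 1.89 for 1 copy, 1.69 for 2, 1.69 for 3, 1.28 for 4 and 1.69 for 5. The 2 libraries are separate pools, which cannot be told apart from the spacing.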

How the results depend on the processing

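The counts of IRF calls and the share of barcodes with mRNA stayed close to the reported value (counts within 1.5 times) in 126 recomputations and moved further in 11. These varied barcode minimums, pseudocount, scaling, tool, comparator and replicates. Some of the 126 could not move, since the episomal fits without a barcode minimum held the same 439 constructs. Counts near the number tested, such as 14 of 15, could not rise by 1.5 times. The 126 therefore overstate how stable the counts are. Leaving out 1 replicate gave 9 to 11 arrays above rd at 5 bp, 14 at 10 bp and 9 to 11 after integration, 11 to 13 higher at 10 bp than at 5 bp, and 1 to 3 integrated contexts, with the other spacer supplying the spread where 1 episomal mRNA sample was left. The counts that moved further were after integration 5 of 6 arrays, 1 of 2 steps, 28 of 40 comparisons with other motifs and 2 of 4 contexts with at least 20 barcodes per construct, 7 of 11 arrays and 2 of 8 steps with at least 10 RPM in genomic DNA, and 3 contexts without the barcode of most mRNA, and 3 arrays at 5 bp without a comparator construct. Minimums leave fewer constructs to test, and the cause of the others was not tested.

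Without a comparator construct the 5 bp mean was -0.19, with single copies at -0.0050 (context 1) and -0.86 (context 3), 2 copies at -0.62 (context 3), 3 copies at -0.17, -0.35 and -0.064, 4 copies at -0.34, -0.31 and -0.43 (contexts 1 to 3) and 5 copies at -0.80 (context 3), in place of positive values. The single copy in context 2 at 10 bp then stood at 0.22, or at 0.25 against the 3 rd constructs summed. After integration, without a comparator, single copies stood at -0.19 (context 1) and -1.08 (context 3), 2 copies in context 3 at -0.46 and 3 copies in context 2 at 0.68. Against the 3 rd constructs summed, the single copy in context 3 stood at -0.43 and 3 copies in context 2 at 1.33, and without the top barcode that array stood at 2.40. These settings move the zero of the scale. Some calls were also lost or gained without a change of sign. After integration the single copy in context 1 lost its call in 4 settings (0.09 to 0.78) and 2 copies in context 2 in 3 settings (0.43 to 0.81). Without a plasmid read minimum the single copy in context 1 passed as higher at 10 bp than at 5 bp (0.34, edgeR adjusted p = 0.0493).

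With a replicate block for the same-numbered samples 13 arrays were higher at 10 bp than at 5 bp, and after integration 11 arrays, 6 steps, 65 comparisons with other motifs and 5 contexts passed. Deviations of same-numbered samples correlated at 0.05 between spacers and between -0.03 and 0.05 between integrated mRNA and genomic DNA. Low correlations cannot show whether same-numbered samples were paired, since paired samples can vary independently. The main tests left pairing out. Precision after integration is limited by 1 to 46 barcodes per array.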
